A study of Mus musculus with 18 samples.

Results

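The protein kinase C genes Prkca, Prkcb, Prkcd, Prkce, Prkch, Prkci, Prkcq and Prkcz were followed across mouse Th2, Th1 and naive CD4+ T cells by their coverage with H3K79me2, the dimethyl mark on histone H3 that DOT1L sets along transcribed genes. They were chosen by symbol, as 8 of the 21627 protein-coding genes annotated on chromosomes 1 to 19 and X, and all 8 could be tested. The mark had been mapped by ChIP-seq (immunoprecipitation of chromatin followed by sequencing) in 9 libraries, 3 each from Th2, Th1 and naive cells, with 1 deposited list of broad peaks per library. For each list, the measured value was the percent of the annotated gene that lay under peaks.

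The Th2 cells were enriched CD4+ T cells grown for 4 days on coated antibodies to CD3 and CD28, with IL-4, IL-2 and anti-IFNg added, then sorted for IL-4 AmCyan or IL-13 dsRed in the 4C13R reporter mouse. The Th1 cells had the same stimulation and time with IL-12, IL-2 and anti-IL-4 added, and were sorted for YFP in the IFNg-YFP reporter mouse. The naive cells were CD44- CD62L+ cells taken directly from the spleens of WT mice, without culture. The genotype label was WT in all 3 groups. Culture, reporter strain and cell state differed together between either helper group and naive cells and cannot be told apart, and the 2 helper groups differed in both cytokines and reporter. The labels do not say whether replicate libraries stem from different animals, and the p-values therefore measure the spread between these libraries alone, which may be technical. The 9 input libraries were not used here.

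Protein kinase C enzymes are serine and threonine kinases that act downstream of phospholipase C. The conventional isoforms, PKC alpha (Prkca) and PKC beta (Prkcb), need calcium and diacylglycerol. The calcium-independent isoforms, PKC delta (Prkcd), PKC epsilon (Prkce), PKC eta (Prkch) and PKC theta (Prkcq), respond to diacylglycerol alone. The atypical isoforms, PKC iota (Prkci) and PKC zeta (Prkcz), need neither and act in cell polarity complexes. In T cells, PKC theta is recruited to the contact with the antigen-presenting cell and its activity leads to NF-kB activation.

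Promoter windows from RefSeq on GRCm38.p6, 250 bases before to 50 bases after an annotated start, matched 6 of the 8 genes by symbol, in 9 windows; Prkce and Prkch had no entry. The windows of Prkcq, Prkcb and Prkcz are printed because the 3 genes differed most clearly in how the marked domain stood to the start. Capitals mark the GC box GGGCGG or its reverse complement CCGCCC, which was found in 35.7% of all 32851 windows searched on both strands. Each is written 5′ to 3′ on the strand of its gene. The Prkcq window was chr2:11172132-11172431 on the plus strand, the Prkcb window chr7:122288875-122289174 on the plus strand, and the first Prkcz window chr4:155361379-155361678 on the minus strand.
Prkcq: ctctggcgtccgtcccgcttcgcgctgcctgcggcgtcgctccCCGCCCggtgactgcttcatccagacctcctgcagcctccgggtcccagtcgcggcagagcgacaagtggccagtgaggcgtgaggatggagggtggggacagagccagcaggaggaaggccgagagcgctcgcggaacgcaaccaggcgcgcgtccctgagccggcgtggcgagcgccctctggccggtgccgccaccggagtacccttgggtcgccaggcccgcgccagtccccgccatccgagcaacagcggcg
Prkcb: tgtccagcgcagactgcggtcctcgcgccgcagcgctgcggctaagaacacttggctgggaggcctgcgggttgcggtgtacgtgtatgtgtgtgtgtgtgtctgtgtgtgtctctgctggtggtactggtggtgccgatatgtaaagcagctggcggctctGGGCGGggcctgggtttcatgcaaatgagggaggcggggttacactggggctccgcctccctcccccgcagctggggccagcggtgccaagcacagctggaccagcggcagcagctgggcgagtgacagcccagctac
Prkcz: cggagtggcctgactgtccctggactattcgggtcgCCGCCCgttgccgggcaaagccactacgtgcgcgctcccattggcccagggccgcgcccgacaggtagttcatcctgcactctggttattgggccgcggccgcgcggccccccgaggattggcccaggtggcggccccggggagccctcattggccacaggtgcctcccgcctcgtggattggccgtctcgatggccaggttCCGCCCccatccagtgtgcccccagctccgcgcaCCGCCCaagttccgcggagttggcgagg

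All 3 windows were rich in CpG, with 37 CpG in the Prkcq window, 19 in the Prkcb window and 31 in the Prkcz window, against a median of 7 over all windows. Their G and C content was 73.0% for Prkcq, 65.3% for Prkcb and 71.0% for Prkcz, against a median of 52.7%. Neither TATAAA, held by 13.6% of all windows, nor TGACGTCA, held by 1.79%, was in these 3 windows on either strand. The Prkcq window lay wholly under a peak in all 9 lists. The Prkcb window was wholly covered in 1 of 3 Th2 lists, 1 of 3 Th1 lists and 3 of 3 naive lists, and had no coverage in the other lists. The Prkcz window had no coverage in any of the 9 lists, and neither did the 2 other Prkcz windows.

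The 8 genes spanned nearly the whole range of coverage. Prkcq and Prkch were marked over nearly their whole length in every list, Prkca from its start over about 8 of 10 segments of equal length, Prkcd and Prkci over their first part only, and Prkcz hardly at all in Th2 and Th1 cells. Prkce, Prkcb and Prkcz had the largest differences between helper and naive cells, and in all 3 genes the helper lists were lower. No gene of the 8 passed the call in the higher direction in any comparison.

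**Figure D1:**
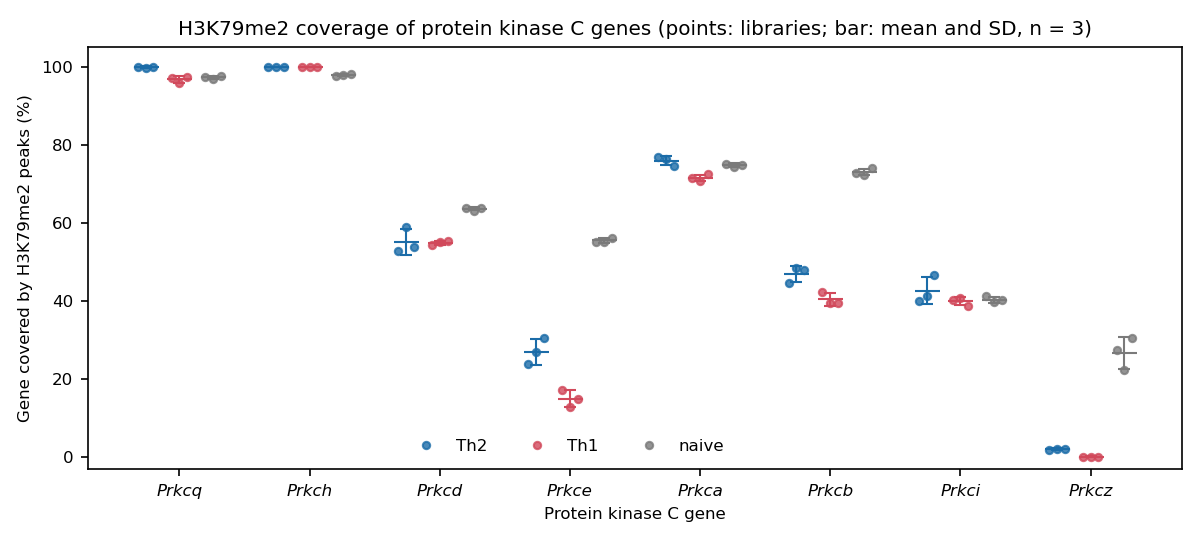
Percent of each protein kinase C gene covered by H3K79me2 peaks, with 1 point per library and the mean and SD of 3 libraries, Th2 left, Th1 middle and naive right. The calcium-independent, diacylglycerol-responsive isoforms come first, then the conventional and the atypical ones; the helper libraries of Prkce, Prkcb and Prkcz all sit below the naive ones.

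A gene was called where limma, fitted to all 11597 genes whose coverage was not constant, gave a Benjamini-Hochberg adjusted p under 0.05 and the group means differed by at least 25 points. In Th2 against naive cells 2 of the 8 genes, Prkcb and Prkce, were called lower and 0 higher, while 15.4% of all genes tested were called lower and 4.26% higher. In Th1 against naive cells 3 of the 8, Prkcb, Prkce and Prkcz, were called lower and 0 higher, against 16.3% lower and 4.38% higher over all genes. At an unadjusted p under 0.05 there were 6 of the 8 in each comparison, of either sign, against 63.9% of all genes for Th2 and 63.8% for Th1. With 8 genes these counts say nothing particular about the family. The median difference of the 8 was -3.62 points for Th2 minus naive and -5.96 points for Th1 minus naive, beside -5.50 and -5.55 points over all genes tested. Both comparisons share the naive libraries.

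The lists differed in how much they covered overall. The Th2 lists covered 232.2 to 249.9 Mb, the Th1 lists 217.0 to 240.1 Mb and the naive lists 275.6 to 284.9 Mb. Read depth is unknown, so each list was also cut, from its least significant peak upward, to the same covered length of 217.0 Mb. That setting ended every call among the 8 genes, and its values stand beside the results it changed. In a bulk library, less of the mark in each cell and the mark in fewer of the cells cannot be told apart.

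None of the 7 T lineage markers was at 0 in any group. Of the B cell markers, Ms4a1, Pax5 and Blk were at 0 in all 9 lists; the summed coverage of the 6 B cell genes was 100 in every Th2 and Th1 library and 136 to 184 in the naive libraries, where Cd79b was at 43.1%, 84.0% and 36.0%. For comparison, the CD8 pair, Cd8a plus Cd8b1, summed to 24.8 to 39.2 in Th2, 7.55 to 11.9 in Th1 and 200 in naive libraries. Both lists were thus higher in naive cells, as were Prkcb, Prkce and Prkcz, and their part in the results was not tested. Of the 5 myeloid genes, 4 were at 0 in all 9 lists, with sums of 2.35 to 5.99 in Th2, 0 to 1.77 in Th1 and 5.11 to 6.89 in naive libraries. The 3 NK cell genes, of which Ncr1 was at 0 in all lists, summed to 78.95 to 100 in Th2, 39.9 to 55.4 in Th1 and 100 in naive libraries. The 5 genes that mark the cultures did not all separate the helper groups. Il4 was covered to 100% in each Th2 library, to 47.2%, 0% and 21.8% in Th1 and to 0% in naive libraries. Il13 was at 100% in each Th2 library, at 43.6%, 0% and 9.17% in Th1 and at 0% in naive libraries. Ifng was at 0%, 0% and 8.31% in Th2, 100% in each Th1 and 0% in each naive library. The reporters used in the sort stand for these 3 cytokine genes. Gata3, the Th2 factor, was at 96.6% to 100% in Th2, 58.02% to 61.7% in Th1 and 74.6% to 76.7% in naive libraries. Tbx21, the Th1 factor, was at 100%, 99.7% and 100% in Th2, 100% in each Th1 and 0% in each naive library, so both helper groups were marked there.

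Among the calcium-independent, diacylglycerol-responsive isoforms, Prkcq (chr2:11171905-11301226, 129.3 kb, plus strand) was marked almost entirely. Its coverage was 100%, 99.6% and 100% in the Th2 libraries, 97.0%, 95.8% and 97.3% in the Th1 libraries, and 97.4%, 96.9% and 97.6% in the naive libraries. The Th2 libraries lay above all others, while Th1 and naive libraries overlapped. The difference of Th2 minus Th1 was 3.17 ± 0.65 points (SE, adjusted p = 0.0158, limma) and that of Th2 minus naive was 2.56 points (adjusted p = 0.0105), both far under the 25-point minimum. Nothing was detectable for Th1 minus naive (-0.61 points, adjusted p = 0.452). Blocks of 121.5 kb in total, 93.9% of the gene, were covered in every list, the longest of them 104.1 kb from the start of the gene. The strongest peak on the gene ranked within the top 0.99% of its own list in all 9 lists, by the authors' fold enrichment of 7.70 to 10.2.

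The largest differences at Prkcq lay outside the annotated gene. The peak over the gene began 38.7, 38.8 and 38.9 kb before the lower end of the gene in Th2 libraries and 38.7, 38.9 and 38.7 kb before it in Th1 libraries, against 11.3 kb in each naive library. In naive libraries the same upstream stretch held broken, shorter peaks. Of the 10 upstream 5-kb tiles 9 could be tested, and of these 5 were called higher in Th2 than in naive cells and 4 higher in Th1 than in naive cells, by the same rule applied to 84522 tiles genome-wide, where 9.04% (Th2) and 7.68% (Th1) were called higher. The tile chr2:11135001-11140000 was 62.9 points higher in both helper groups (adjusted p = 0.00038 for Th2 minus naive and 0.000358 for Th1 minus naive). These counts were 5 for Th2 and 4 or 5 for Th1 under all alternatives run on tiles, also at matched covered length, where both were 5. No gene of any kind was annotated within 50 kb upstream in the RefSeq table, and the nearest protein-coding gene on that side, Sfmbt2, was 576.7 kb away.

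Beyond the other end of Prkcq, the Th2 lists differed from both other groups. The 20 kb past the gene end were covered to 64.1%, 62.0% and 64.2% in Th2 libraries, to 18.0%, 15.9% and 31.8% in Th1 libraries, and to 2.26%, 2.37% and 9.01% in naive libraries. The 3 groups did not overlap there. In the 50 kb on that side, 4 tiles were called higher in Th2 than in naive cells, against 9.04% of all tiles tested. There, 3 tiles were called higher in Th2 than in Th1 cells, against 5.80%. With peaks kept solely at −log10 q of at least 5 these became 0 in both comparisons. The tile chr2:11310001-11315000 stood 98.4 points above naive (adjusted p = 1.81e-06) and 67.8 points above Th1 (adjusted p = 6.92e-05). Of 5 tiles tested on the gene itself, 2 at its end were called higher in Th2 than in naive cells and than in Th1 cells. The shares of all tiles were 9.04% and 5.80%. Both counts stayed at 2 under all alternatives run on tiles. The tile chr2:11295001-11300000 stood 39.7 points above naive (adjusted p = 6.21e-06, limma) and 32.7 points above Th1 (adjusted p = 8.84e-05).

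**Figure D2:**
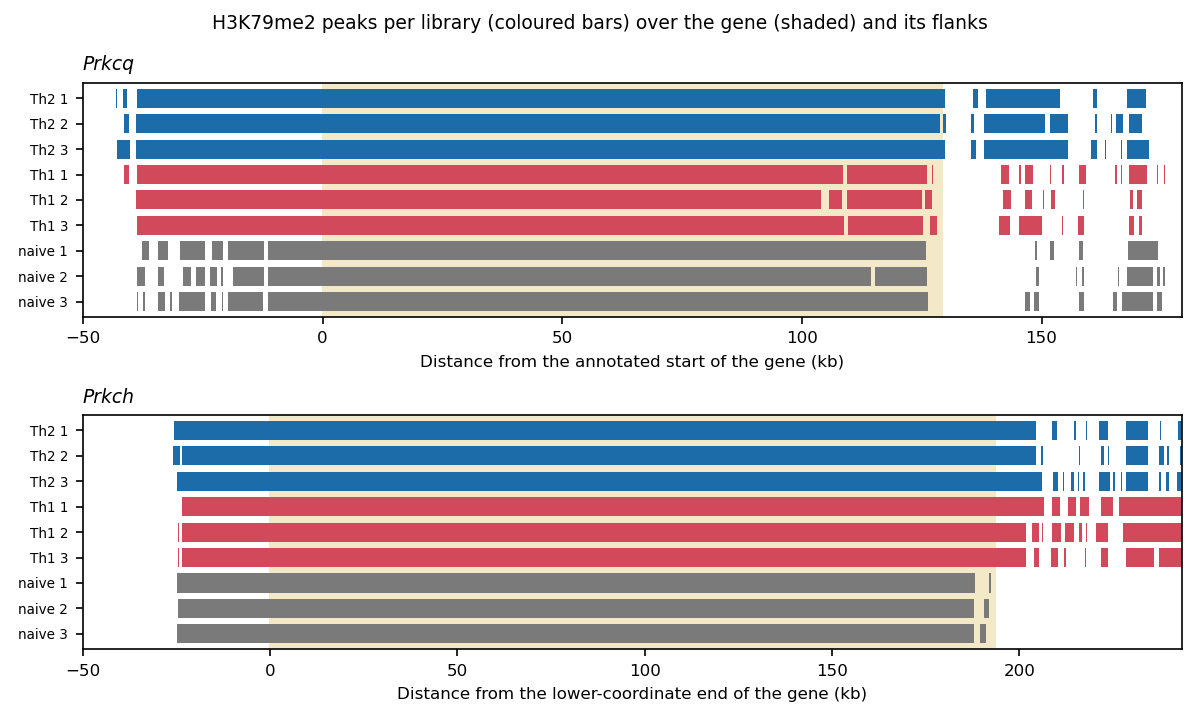
Peaks of each library (rows, Th2 at the top, then Th1 and naive) over Prkcq and Prkch and 50 kb on either side, with distance from the gene's start or lower-coordinate end in kb on the x axis and the annotated gene shaded. The unbroken block over Prkcq begins about 38.7 kb upstream in Th2 and Th1 libraries and 11.3 kb upstream in naive libraries, and the block over Prkch runs past the higher end of the gene only in the 6 helper libraries.

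Prkch (chr12:73584796-73778185, 193.4 kb) was covered to 100% in all 3 Th2 and all 3 Th1 libraries, and to 97.6%, 97.9% and 98.0% in the naive libraries. Either helper group thus stood 2.16 points above naive cells (adjusted p = 0.00742 for Th2 and 0.00735 for Th1), under the 25-point minimum. The block was among the strongest of the 8 genes, with a fold enrichment of 8.71 to 9.94 in Th2, 9.10 to 11.4 in Th1 and 7.97 to 9.02 in naive lists, and ranked within the top 0.555% of its list in all 9. At the lower end it ran 23.4 to 25.7 kb past the gene in Th2, 23.5 to 23.6 kb in Th1 and 24.7 to 24.9 kb in naive libraries. It ran 10.96 to 12.6 kb past the higher end of the gene in Th2 libraries and 8.24 to 13.2 kb past it in Th1 libraries, and stopped 5.17 to 5.44 kb before that end in naive libraries. Of the 10 tiles beyond this end, 6 were called higher in Th2 and 9 higher in Th1 than in naive cells, against 9.04% and 7.68% of all tiles tested. A further comparison, Th2 against Th1, had 2 tiles lower in Th2, where 2.95% of all tiles were lower in Th2. With peaks kept solely at −log10 q of at least 5, 2 (Th2) and 4 (Th1) tiles were higher than in naive cells. The share over all tiles in that setting is not given here. The lncRNA Gm34189 spans this end (chr12:73773260-73782166), and LOC115488016 overlaps the other end, so the marked bases there cannot be assigned to 1 gene.

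Prkce (chr17:86167785-86657919, 490.1 kb) showed the largest difference in length. Its coverage was 23.8%, 26.9% and 30.5% in Th2 libraries, 17.2%, 12.9% and 15.0% in Th1 libraries, and 55.1%, 55.2% and 56.2% in naive libraries. The 3 groups did not overlap. Coverage fell by 28.5 ± 1.97 points in Th2 relative to naive cells (SE, adjusted p = 1.34e-05), a difference of -139.5 kb, and by 40.5 points in Th1 relative to naive cells (adjusted p = 1.96e-06), a difference of -198.4 kb. Th2 minus Th1 was 12.01 points (adjusted p = 0.00608), under the 25-point minimum.

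The Prkce domain in helper cells was broken up, and was also covered less at its higher-coordinate edge. The gene held 55 to 78 separate peaks in Th2 libraries, 47 to 55 in Th1 libraries and 23 to 25 in naive libraries. The longest unbroken run was 9.91 to 15.5 kb in Th2, 6.66 to 7.18 kb in Th1 and 38.3 to 52.1 kb in naive libraries. With each gene divided into 10 segments of equal length, here counted from the lower coordinate, segments 1 to 6 were covered to 27.5% to 71.6% in Th2, 11.3% to 53.5% in Th1 and 82.5% to 95.4% in naive cells on average. In segment 7, where the naive domain ended, mean coverage was 0.965% in Th2, 0% in Th1 and 10.3% in naive cells. Segments 8 to 10 were at or near 0 in all groups. Of its 99 tiles 65 could be tested. Of these, 43 were called lower in Th2 and 55 lower in Th1 than in naive cells, against 23.6% and 26.2% of all tiles tested. Between the helper groups 8 were higher in Th2 than in Th1, against 5.80% of all tiles tested. With peaks kept solely at −log10 q of at least 5 this last count was 0. At matched covered length 2 tiles were higher and 1 lower in Th2 than in Th1. A total of 64.7 kb was covered in every naive list and in no helper list, while 29.1 kb was covered in every list.

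The Prkce peaks were weak in every group. The strongest peak on the gene had a fold enrichment of 2.80, 2.81 and 2.97 in Th2, 2.77, 3.37 and 2.86 in Th1, and 3.36, 3.15 and 3.43 in naive lists. At matched covered length the gene was covered to 17.4%, 16.8% and 17.6% in Th2, 6.47%, 11.6% and 15.0% in Th1, and 23.2%, 20% and 21.5% in naive libraries. The groups still did not overlap, but Th2 minus naive was -4.28 points (adjusted p = 0.124) and Th1 minus naive -10.6 points (adjusted p = 0.00408), and neither was called. With peaks kept solely at −log10 q of at least 5, coverage was 0%, 1.23% and 2.24% in Th2, 0.70%, 0.21% and 0.64% in Th1, and 27.5%, 27.9% and 21.5% in naive libraries. Th2 minus naive was then -24.45 points (adjusted p = 1.73e-05), just short of the 25-point minimum, and Th1 minus naive -25.1 points (adjusted p = 1.56e-05), which was still called.

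**Figure D3:**
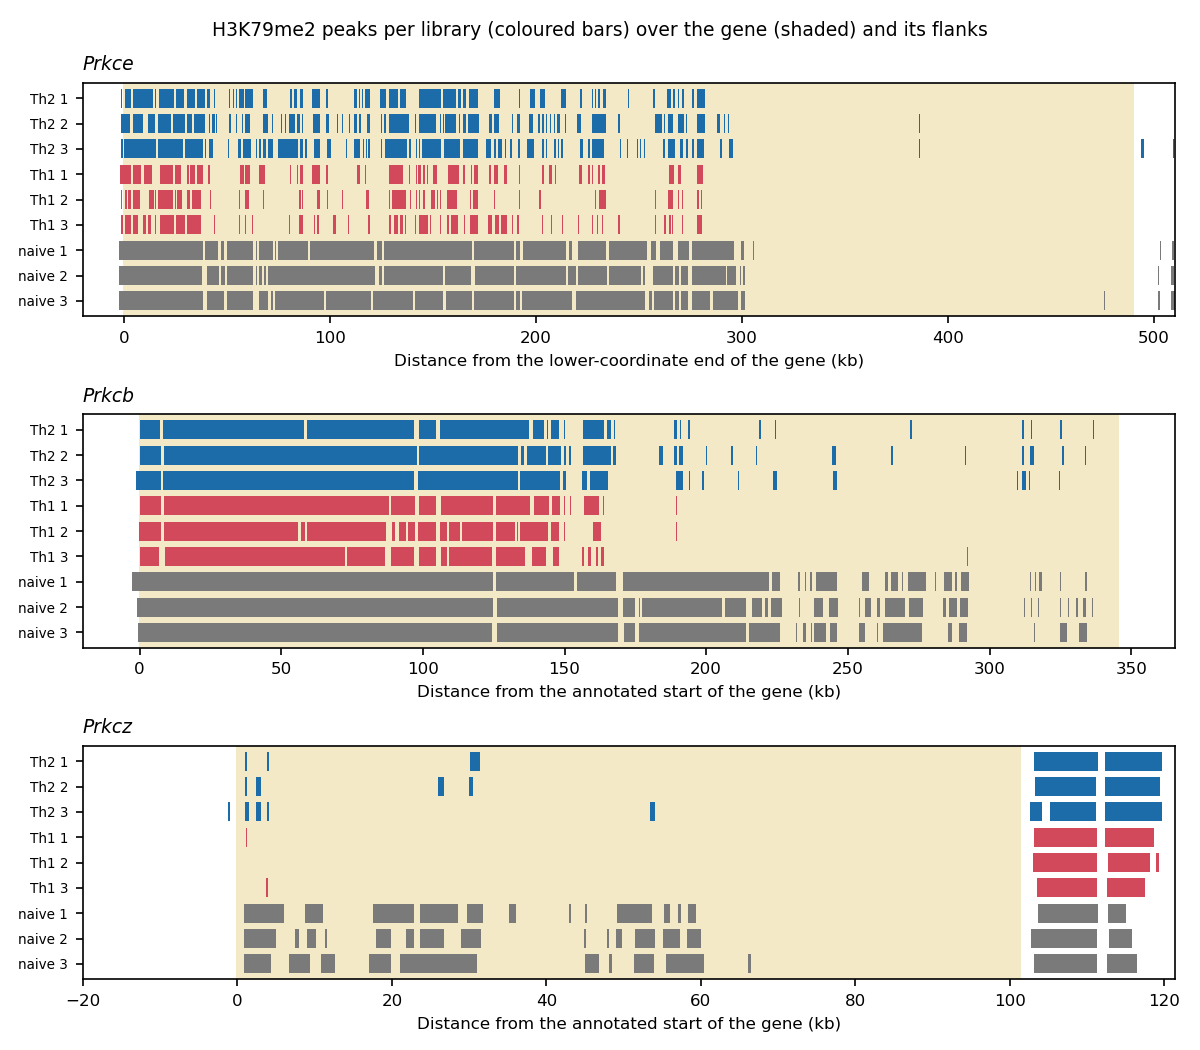
Peaks of each library (rows, Th2 at the top, then Th1 and naive) over Prkce, Prkcb and Prkcz and 20 kb on either side, with distance in kb on the x axis and the annotated gene shaded. Prkce is cut into many short peaks in helper libraries, the Prkcb domain ends earlier in helper libraries, and Prkcz has long peaks in naive libraries only; the peaks right of Prkcz lie over and around its neighbour Faap20.

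Prkcd (chr14:30595353-30626414, 31.1 kb, minus strand) was marked over its first part in all lists. Coverage was 52.9%, 59.0% and 53.8% in Th2, 54.4%, 55.0% and 55.3% in Th1, and 63.9%, 63.1% and 63.7% in naive libraries. Every helper library lay below every naive one, by 8.41 points on average for Th2 (adjusted p = 0.00485) and 8.67 points for Th1 (adjusted p = 0.0041), under the 25-point minimum. The gap came from the far edge of the domain, whose longest run was 16.4 to 17.0 kb in Th2, 16.5 to 16.9 kb in Th1 and 19.6 to 19.9 kb in naive libraries. It held at matched covered length, where coverage was 52.9% to 54.8% in Th2, 54.4% to 55.3% in Th1 and 63.1% to 63.9% in naive libraries. With libraries centred to 1 mean over all genes it did not hold. Th2 minus naive was then -0.71 points (adjusted p = 0.785, limma) and Th1 minus naive -0.43 points (adjusted p = 0.869). Segments 8 to 10 of the gene were at 0 in every group.

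Of the conventional isoforms, Prkcb (chr7:122289104-122634402, 345.3 kb, plus strand) was called lower in both helper groups. Its coverage was 44.6%, 48.5% and 47.8% in Th2 libraries, 42.4%, 39.5% and 39.6% in Th1 libraries, and 72.8%, 72.3% and 73.9% in naive libraries. No 2 groups overlapped. Coverage fell by 26.1 ± 1.67 points in Th2 relative to naive cells (SE, adjusted p = 8.91e-06), a difference of -89.95 kb, and by 32.6 points in Th1 relative to naive cells (adjusted p = 2.54e-06), a difference of -112.4 kb. Th2 stood 6.503 points above Th1 (adjusted p = 0.0381), under the 25-point minimum. Without Th2 replicate 1, the Th2 difference became -24.9 points and was no longer called.

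The Prkcb difference in percent covered lay mainly in the middle of the gene, far from its start. The first 5 kb were covered to 94.6%, 96.6% and 100% in Th2, 94.4%, 100% and 93.1% in Th1, and 100% in each naive library. Segments 1 to 4 were covered to at least 95.4% in Th2, 86.0% in Th1 and 95.8% in naive cells on average. In segment 6 the mean coverage was 9.51% in Th2, 0.50% in Th1 and 96.0% in naive cells. In segment 8 it was 4.49% in Th2, 0% in Th1 and 51.6% in naive cells. Of the 70 tiles 52 could be tested, and of these 25 were lower and 1 higher in Th2 than in naive cells, against 23.6% and 9.04% of all tiles tested, and 29 were lower in Th1 than in naive cells, against 26.2%. The strongest Prkcb peak had a fold enrichment of 3.44, 3.596 and 3.63 in Th2, 3.53, 3.29 and 3.32 in Th1, and 6.58, 7.03 and 6.62 in naive lists, each against its own background. In naive lists this peak was the block of 125.2 to 127.1 kb that spanned the start. The fold difference was thus not confined to the middle of the gene.

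At matched covered length Prkcb was covered to 42.9%, 45.3% and 44.1% in Th2, 38.9%, 39.4% and 39.6% in Th1, and 48.0%, 56.7% and 48.5% in naive libraries. The groups did not overlap, and the differences from naive cells were -6.98 points for Th2 (adjusted p = 0.0473) and -11.8 points for Th1 (adjusted p = 0.00538), neither of them called. With peaks kept solely at −log10 q of at least 5, Th2 minus naive was -13.2 points (adjusted p = 0.0294) and not called, and Th1 minus naive -27.0 points (adjusted p = 0.00114) and still called.

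Prkca (chr11:107933387-108343888, 410.5 kb, minus strand) was covered to 70.7% or more in each group. Its coverage was 76.8%, 76.3% and 74.6% in Th2, 71.4%, 70.7% and 72.4% in Th1, and 75.1%, 74.2% and 74.9% in naive libraries. The Th1 libraries lay below all others, while Th2 and naive libraries overlapped. Th2 minus Th1 was 4.41 points (adjusted p = 0.0335), Th1 minus naive -3.24 points (adjusted p = 0.0345) and Th2 minus naive 1.17 points (adjusted p = 0.387), none near 25 points. At matched covered length the naive libraries were lower, at 64.6%, 58.0% and 64.6%, so that Th1 minus naive turned to 8.41 points and Th2 minus naive was 12.5 points. A total of 277.1 kb was covered in every list, and segment 10 of the gene was at or near 0 in all groups. Of its 83 tiles 25 could be tested. Of these, 6 were called lower in Th1 and 1 higher in Th2 than in naive cells, against 26.2% and 9.04% of all tiles tested. Th2 was called higher than Th1 in 3 tiles, against 5.80%. At matched covered length 5 tiles were higher and 0 lower in Th1 than in naive cells. Toward the far edge, segment 8 was covered to 75.1% in Th2, 54.0% in Th1 and 73.7% in naive cells on average. Nearer the start, the tile chr11:108270001-108275000 was 23.9 points higher in both helper groups than in naive cells (adjusted p = 5.3e-05 for Th2 and 5.03e-05 for Th1), under the 25-point minimum.

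**Figure D4:**
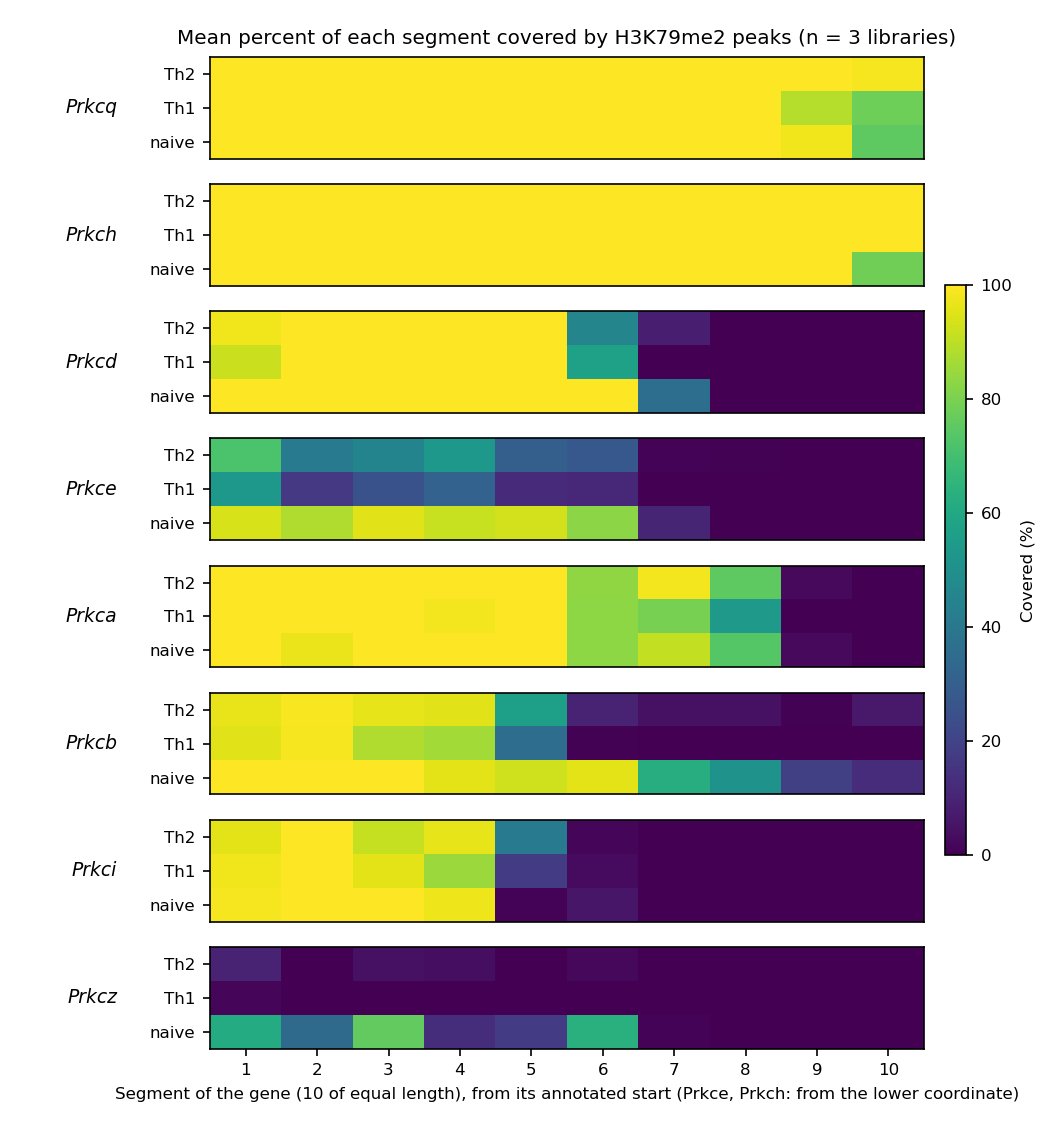
Mean percent of each of 10 equal segments of each gene covered by peaks (colour, 0 to 100%), from the annotated start on the left, or from the lower coordinate for Prkce and Prkch, with Th2, Th1 and naive cells in rows. Segment 6 of Prkcb is covered to 9.51% in Th2, 0.50% in Th1 and 96.0% in naive cells, while Prkcq is covered nearly throughout in the 3 groups.

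Of the atypical isoforms, Prkci (chr3:30995742-31052740, 57.0 kb, plus strand) was marked over about its first 4 segments. Coverage was 40.1%, 41.2% and 46.7% in Th2, 40.2%, 40.8% and 38.8% in Th1, and 41.2%, 39.6% and 40.2% in naive libraries. The 3 groups overlapped and no difference was detectable, with 2.73 points for Th2 minus Th1 (adjusted p = 0.463), 2.35 points for Th2 minus naive (adjusted p = 0.335) and -0.38 points for Th1 minus naive (adjusted p = 0.911). From 29.2 kb after its start to its end the gene lay under no peak in any list.

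Prkcz (chr4:155260118-155361428, 101.3 kb, minus strand) was the least marked of the 8. Its coverage was 1.78%, 2.15% and 2.22% in Th2 libraries, 0.18%, 0% and 0.22% in Th1 libraries, and 27.5%, 22.4% and 30.5% in naive libraries. All helper libraries lay below all naive ones. Coverage fell by 26.6 points in Th1 relative to naive cells (adjusted p = 9.67e-06), and the difference of Th2 minus naive was -24.7 ± 1.77 points (SE, adjusted p = 1.61e-05), just short of the 25-point minimum and so not called. Without naive replicate 2 it was -26.9 points and called, and without naive replicate 3 the Th1 difference was -24.8 points and not called.

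The naive Prkcz mark lay in separate blocks near the start and within the first 6 segments, with mean coverage of 61.6% in segment 1, 75.9% in segment 3 and 63.4% in segment 6. In the first 5 kb the coverage was 11.02%, 17.5% and 31.1% in Th2, 3.66%, 0% and 4.38% in Th1, and 83.2%, 83.4% and 69.9% in naive libraries. There Th2 minus naive was -59.0 points (adjusted p = 0.000172) and Th1 minus naive -76.2 points (adjusted p = 3.96e-05), and both were called. The strongest naive peaks were weak, at a fold enrichment of 3.02, 3.23 and 2.75. With peaks kept solely at −log10 q of at least 5, the gene was at 0 in all 6 helper libraries and at 5.12%, 4.16% and 0% in naive libraries, and the call was lost (adjusted p = 0.0735 for Th1 minus naive). Th1 minus naive was -3.02 points at matched covered length (adjusted p = 0.0737).

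Between the 2 helper groups, 0 of the 8 genes were called by limma, against 2.08% of all genes tested called higher in Th2 and 1.56% called lower. At an unadjusted p under 0.05 there were 4, Prkca, Prkcb, Prkce and Prkcq, against 27.2% of all genes in either direction. The same 4 had an adjusted p under 0.05, against 15.2% of all genes, with Th2 higher in each. At matched covered length only Prkcq kept this (3.25 points, adjusted p = 0.0109, limma). The adjusted p was then 0.245 for Prkca, 0.274 for Prkcb and 0.0966 for Prkce. With peaks kept solely at −log10 q of at least 5 none of the 4 kept it. The adjusted p was then 0.194 for Prkca, 0.121 for Prkcb, 0.995 for Prkce and 0.0546 for Prkcq. With peaks as deposited, the median difference of the 8 genes was 2.95 points for Th2 minus Th1, beside 0.02 points over all genes. Groups that did not overlap, with Th2 above Th1, were seen in 5 of the 8 genes, against 16.3% of all genes, and in 0 of the 8 with Th2 below, against 13.9%. In Th2 against naive cells, 2 of the 8 were wholly above and 4 wholly below, against 14.7% and 53.1% of all genes. In Th1 against naive cells, 1 was wholly above and 5 wholly below, against 14.2% and 52.5%.

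The order of the genes by coverage was Prkch, Prkcq, Prkca, Prkcd, Prkcb, Prkci, Prkce and Prkcz in Th2 cells, and the same in Th1 cells. In naive cells, it was Prkch, Prkcq, Prkca, Prkcb, Prkcd, Prkce, Prkci and Prkcz. The ranges over libraries of neighbours in this order overlapped for Prkch and Prkcq in Th2 and in naive cells, and for Prkcb and Prkci in Th2 and in Th1 cells. The ranges of the other neighbours did not overlap.

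**Figure D5:**
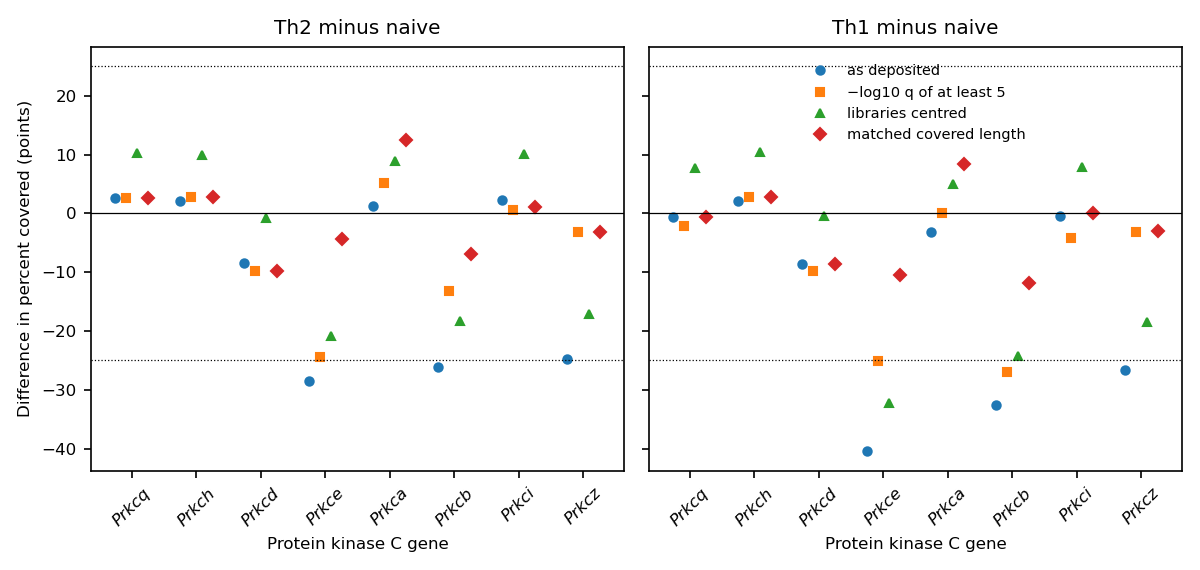
Difference in percent covered, Th2 minus naive (left) and Th1 minus naive (right), for each gene with peaks as deposited and under 3 other settings; dotted lines mark the 25-point minimum. At matched covered length no gene reaches the minimum, with Prkcb at -6.98 points for Th2 and -11.8 points for Th1.

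Of 55 genes around these kinases in 6 groups, 46 could be tested. In Th2 against naive cells 2 were called higher and 9 lower, and in Th1 against naive cells 1 was higher and 8 lower, beside a background over all genes of 4.26% higher and 15.4% lower for Th2 and 4.38% higher and 16.3% lower for Th1. At matched covered length, where 44 could be tested, 8 were higher and 7 lower in Th2, against 7.01% and 10.2% of all genes, and 6 were higher and 5 lower in Th1, against 7.58% and 9.57%. With a −log10 q minimum of 5, 4 were higher in Th1 than in naive cells. The largest called difference of Th2 minus naive was at Rasgrp2 (-70.6 points), an exchange factor for Rap of the RasGRP family, whose coverage was 19.2% ± 1.71 in Th2, 21.2% ± 2.80 in Th1 and 89.8% ± 3.14 in naive cells (SD, n = 3). Pard6g, a polarity partner of atypical PKC, stood at 16.7% in Th2, 2.59% in Th1 and 74.97% in naive cells. Dgke, a diacylglycerol kinase, was at 42.8% in Th2, 32.3% in Th1 and 99.4% in naive cells. Ikbkb, a kinase of the NF-kB pathway, was at 40.5% in Th2, 41.8% in Th1 and 72.3% in naive cells. These 4 genes were called lower in both helper groups, and were still called at matched covered length.

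Between the helper groups, 5 of the 46 were higher in Th2 and 1 lower, against 2.08% and 1.56% of all genes, and with a −log10 q minimum of 5 the first count was 2. Marcks, which encodes a major PKC substrate, was covered to 100%, 97.3% and 100% in Th2, 27.3%, 13.7% and 0% in Th1, and 100% in each naive library. It fell by 86.3 points in Th1 relative to naive cells (adjusted p = 1.09e-05), and Th2 stood 85.4 points above Th1 (adjusted p = 8.49e-05). Marcks was no longer called in Th1 against naive cells at matched covered length, at -28.8 points (adjusted p = 0.378). With a −log10 q minimum of 5 neither difference was called, at -66.7 points for Th1 minus naive (adjusted p = 0.0656) and 99.1 points for Th2 minus Th1 (adjusted p = 0.0776). Chn2, a diacylglycerol-binding Rac regulator, was at 44.1% in Th2, 0.78% in Th1 and 58.9% in naive cells, and with a −log10 q minimum of 5 its difference of Th2 minus Th1 was 1.79 points. Plcd1, a phospholipase C, was at 48.6% in Th2, 2.83% in Th1 and 0% in naive cells. Dgkh, another diacylglycerol kinase, was the one gene lower in Th2, at 12.9%, with 44.1% in Th1 and 34.8% in naive cells. The remaining pair higher in Th2 was Pard6b (39.0 points) and Plcd4 (38.7 points). Pard6b was not called at matched covered length (21.5 points), and Plcd4, which overlaps another gene, was not called with a −log10 q minimum of 5 (19.1 points).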

How the data were processed

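The submitters' processing notes name Bowtie2, SAMtools, Picard and MACS2 and the build mm10; not given in the sources used here are their settings, their versions and the role of the inputs. Broad peaks were deposited per library, with start and end, a score (not used), a fold enrichment (a ratio) and −log10 p and −log10 q values by the authors. The fold ratio and −log10 q served only to describe, rank or filter peaks within a list.

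Peaks were merged within each of the 9 lists and intersected with RefSeq gene bounds on GRCm38.p6, the assembly behind mm10. Percent coverage was computed here, per gene and per 5-kb tile, and fitted with limma 3.58.1 in R 4.3.3 (empirical Bayes with a variance trend), with all 9 libraries in 1 fit and group as the only term. A call needed a Benjamini-Hochberg adjusted p under 0.05 over all features tested and at least 25 points. The fit was tested on simulated data. Depth is not in the lists, so no counting interval could be set; the spread over 3 libraries is the only error. Whether depth moved covered length was not tested.

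Genes named were the 8 kinases, the pathway genes with the 6 largest called differences per comparison, and marker genes. The members and lists were chosen with earlier results of these data known, and tiles beside the genes, and pathway genes under the alternatives, were read after the tiles within them had been seen. The alternatives were a −log10 q minimum of 5, matched covered length, joined gaps of 1 kb, centred libraries, the first 5 kb, genes without 2 kb at each end, no variance trend, all genes kept, a replicate block and leaving out each library. Some listed genes are not reported here.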

Additional observations from a re-analysis of the deposited data

How the results depend on the processing

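Calls at the 8 genes depended on how much each list covered. For genes called lower in Th2 against naive cells, 2 as deposited, the count was 0 with −log10 q of at least 5, at matched covered length and with centred libraries. Over the first 5 kb (6 genes with a given strand) it was 1, Prkcz, which was not among the 2 called as deposited. Without 1 library the count was 1 to 3. With −log10 q of at least 5, Prkce missed the minimum at -24.45 points. For Th1 against naive cells, 3 as deposited, the count was 2 with −log10 q of at least 5 and 0 at matched covered length. It was 1 with centred libraries (Prkce) and 1 over the first 5 kb (Prkcz). Without 1 library it was 2 or 3. Centring moved the median of all genes from -5.50 to 2.20 points for Th2 minus naive, and Prkca then stood at 5.002 points for Th1 minus naive.

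For tiles within the genes, at matched covered length 14 were higher and 11 lower in Th2 than in naive cells. In Th1, 8 were higher and 23 lower than in naive cells, and 7 were higher and 1 lower in Th2 than in Th1 cells. From the lists as deposited to matched covered length, tiles lower in Th2 than in naive cells went from 25 to 4 in Prkcb and from 43 to 6 in Prkce. Tiles lower in Th1 went from 29 to 8 in Prkcb and from 55 to 14 in Prkce. Tiles higher in Th2 than in naive cells went from 1 to 8 in Prkca. With −log10 q of at least 5, 26 were lower in Th2 and 36 lower in Th1 than in naive cells, and 8 were higher in Th2 than in Th1 cells. With centred libraries 12 tiles were higher in Th2 and 4 in Th1 than in naive cells. Shares over all tiles under these settings are not given here, so the counts cannot be set against a background. The cause of these shifts was not tested.

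Coverage gave no sign that replicate numbers pair the samples: correlations of deviations between same-numbered libraries ran from -0.0744 to 0.00149. With 3 libraries per group this check cannot exclude a shared origin of same-numbered libraries. A replicate block left 2 genes lower in Th2 and 3 lower in Th1 than in naive cells and changed no call of the 8 genes. No direction of a called gene reversed under any setting run. Depth per library is unknown.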

Other observations

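For each gene whose coverage ranged over at least 25 points, the genes nearest in coverage over the 9 lists were looked up among genes of 0.5 to 2 times its length that overlap no other protein-coding gene. For Prkcb the nearest of 892 was Btbd9, at 45.1% in Th2, 36.6% in Th1 and 73.2% in naive cells, with a root mean squared difference of 2.81 points, followed by Utrn (3.95 points) and Slc10a7 (5.36 points). For Prkce the nearest of 570 was Msra, at 21.6% in Th2, 10.1% in Th1 and 64.1% in naive cells (6.68 points), then Suclg2 (6.76 points) and Btbd11 (6.84 points). For Prkcz the nearest of 3189 was Ccnjl, at 0.12% in Th2, 0% in Th1 and 27.0% in naive cells (1.16 points), then Megf9 (1.53 points) and Pde2a (2.23 points).

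The edges of the domains gave values not used above. The longest Prkca run reached to within 0.19 kb of the start of the gene and was 231.1 to 231.2 kb long in the 3 Th2 libraries and in Th1 replicate 1, against 150.9 and 151.1 kb in Th1 replicates 2 and 3 and 160.3 to 160.6 kb in naive libraries, where it began 70.6 to 71.0 kb into the gene. The shorter runs came from narrow gaps, and the stretches beyond them were marked too. In naive libraries another peak of 69.4 to 70.4 kb lay over the start, and segment 1 was covered to 99.8% on average. Segment 4 was covered to 97.7% and 97.4% in Th1 replicates 2 and 3. Beside Prkci, the 20 kb past its end were covered to 12.3%, 24.5% and 26.1% in Th2, 3.75%, 5.26% and 0% in Th1, and 27.4%, 30.9% and 22.1% in naive libraries. The Prkci domain itself ended within the gene. The lncRNAs Gm33641 (chr3:31059513-31066692) and Gm33694 (chr3:31062259-31079942) begin in this stretch, so its marked bases cannot be assigned to Prkci.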
